A study of Homo sapiens with 8 samples.

Results

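The genes described are 10 that encode subunits of SWI/SNF, namely SMARCA4, SMARCA2, SMARCB1, SMARCC1, SMARCC2, SMARCD1, ARID1A, ARID1B, ARID2 and PBRM1, out of 19970 protein-coding genes in GENCODE 44 (GRCh38). They were chosen by name, and all peaks in their gene bodies or within 5 kb of their transcription start sites (TSSs) were taken. This gave 57 of the 61878 open regions that were seen in at least 2 libraries, 17 of them at promoters (within 1 kb of a protein-coding TSS) and 40 intragenic. ARID1B held 34 of them, ARID1A 6, SMARCA4, SMARCA2, SMARCC1 and PBRM1 3 each, ARID2 2, and SMARCB1, SMARCC2 and SMARCD1 1 each. A further 33 regions of these genes had a peak in 1 library only and were left out. Chromatin accessibility was measured by ATAC-seq, in which the Tn5 transposase cuts open chromatin, in HEK293T, an established line from human embryonic kidney. The 4 lines carried the WT, Y641F, A677G or H689A/F667I form of EZH2, with 2 libraries each. Gain of function (GOF) is the study's term for the Y641F and A677G lines and loss of function (LOF) for the H689A/F667I line. All lines, WT included, were made by lentiviral infection and blasticidin selection, so each is 1 selected population, and the promoter driving the transgene is not given in the sources used here. The methods describe no deletion of the EZH2 genes of the host cells. No treatment or time course was part of the design.

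SWI/SNF complexes use the energy of ATP to slide and evict nucleosomes. SMARCA4 (BRG1) and SMARCA2 (BRM) are the alternative ATPases. SMARCB1, SMARCC1, SMARCC2 and SMARCD1 form the shared core, ARID1A or ARID1B defines the BAF form, and ARID2 with PBRM1 defines the PBAF form. SWI/SNF is known as an opponent of Polycomb, whose complex PRC2 places H3K27 methylation through its subunit EZH2, and loss of SMARCB1 or SMARCA4 makes some tumours depend on EZH2. The comparison asked whether the genes for these subunits were themselves as accessible in the EZH2 mutants as in WT.

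Sequences of some of the regions named below are shown first. The promoter sequences are the 250 bases before a start site in RefSeq (GRCh38.p14), which held entries for 7 of the 10 genes, and the others are the middle 300 bases of a region in hg38. The SMARCA2 promoter is shown for its altered peaks in GOF libraries. The ARID1B sequence is from its main promoter and is shown for the missing peak in Y641F replicate 1. It is not from the second ARID1B promoter region, where the fold differed, and that sequence is not shown. The ARID1A promoter is shown for its absence in Y641F, and the 2 inner regions for presence that followed the lines. Capitals mark matches on either strand to the 7 motifs spelled out after the sequences.
SMARCA2 promoter, chr9:2015097-2015346, plus strand: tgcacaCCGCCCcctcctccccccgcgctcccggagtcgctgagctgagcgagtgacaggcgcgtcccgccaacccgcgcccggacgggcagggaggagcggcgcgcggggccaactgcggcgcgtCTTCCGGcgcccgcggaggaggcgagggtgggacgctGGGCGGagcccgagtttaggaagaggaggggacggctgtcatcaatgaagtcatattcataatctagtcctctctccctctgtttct
ARID1B promoter, chr6:156777128-156777377, plus strand: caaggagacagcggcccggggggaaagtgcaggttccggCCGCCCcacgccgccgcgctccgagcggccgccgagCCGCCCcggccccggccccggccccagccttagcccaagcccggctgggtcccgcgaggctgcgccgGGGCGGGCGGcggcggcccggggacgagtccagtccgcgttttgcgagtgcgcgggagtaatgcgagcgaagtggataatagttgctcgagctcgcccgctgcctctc
ARID1A promoter, chr1:26695765-26696014, plus strand: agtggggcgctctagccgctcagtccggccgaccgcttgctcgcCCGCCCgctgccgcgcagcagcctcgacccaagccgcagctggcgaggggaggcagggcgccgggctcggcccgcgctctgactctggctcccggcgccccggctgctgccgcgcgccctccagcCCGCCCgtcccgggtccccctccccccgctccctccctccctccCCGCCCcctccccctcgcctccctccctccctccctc
ARID2 intron 3, chr12:45762424-45762723, plus strand: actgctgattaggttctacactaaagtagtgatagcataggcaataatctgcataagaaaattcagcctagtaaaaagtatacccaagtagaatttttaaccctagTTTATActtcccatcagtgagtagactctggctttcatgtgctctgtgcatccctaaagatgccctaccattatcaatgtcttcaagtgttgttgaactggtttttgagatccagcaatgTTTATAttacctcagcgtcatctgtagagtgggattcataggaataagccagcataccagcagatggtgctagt
ARID1B intron 5, chr6:157106363-157106662, plus strand: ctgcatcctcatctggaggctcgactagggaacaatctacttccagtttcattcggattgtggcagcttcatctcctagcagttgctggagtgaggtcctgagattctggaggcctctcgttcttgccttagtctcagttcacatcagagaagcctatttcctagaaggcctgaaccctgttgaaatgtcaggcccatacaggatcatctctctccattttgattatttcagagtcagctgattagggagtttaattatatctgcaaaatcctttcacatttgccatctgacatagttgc

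The SMARCA2 promoter was 68.8% G and C and held 2 GC boxes and 1 ETS match. The ARID1B and ARID1A promoters reached 76.0% and 80.4% G and C, against a median of 58.0% over 35114 RefSeq promoters of the same length, and held 4 and 3 GC boxes and no other match. The ARID2 intron sequence was 39.3% G and C with 2 TATA box matches. The ARID1B intron 5 sequence held none of the motifs.

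The motifs were searched on both strands, and overlapping matches were marked together. The GC box (GGGCGG) was found in 42.6% of all those promoters. The CCAAT box, spelled by its name, was found in 32.0%. The TATA box (TATAAA) was found in 10.7% of promoters, and in 16 of the 40 member intragenic sequences (40.0%) against 18.4% of the middles of all 23687 intragenic regions. Of those 40 sequences 29 came from ARID1B, so the member shares mostly describe 1 gene. The ETS motif (CCGGAAG) was found in 8.52% of promoters. The CRE (TGACGTCA) was found in 1.65% of promoters. The E-box (CACGTG) was found in 6.35% of promoters. The AP-1 motif (TGANTCA) was found in 6.57% of promoters, and in 4 of the 40 member intragenic sequences (10.0%) against 12.1% of all intragenic ones. Median G and C was 47.0% in the member intragenic sequences and 47.7% in all. These are descriptions of letters and not of bound factors.

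Peak number, the only available measure of yield since read depth is unknown, ran from 26350 in Y641F replicate 1 to 64923 in WT replicate 1. The WT libraries had 64923 and 62514 peaks, the A677G and LOF libraries lay between 38016 and 48755, and Y641F replicate 2 had 36598. Peak number thus ran with the lines, WT highest and Y641F lowest, as did several presence and length values, and its part in those was not tested. The promoters of NEFL, NEFM, PAX2, LHX1 and WT1, active in HEK293T cells, were open in all 8 libraries, and those of the blood genes PTPRC, CD3E and SPI1 and of the liver genes ALB and APOA1 in 0 of 8. The 2 libraries of a line are described as independent biological replicates.

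Every one of the 10 genes had at least 1 promoter region open in all 8 libraries. Of the 17 promoter regions 13 (76.5%) were open in all 8, against 71.7% of the promoter regions of all genes. Of the 40 intragenic regions 12 (30.0%) were, against 14.8%. The level of a peak was read as its fold, the ratio of pileup to local background averaged over the peak, which does not grow with gene length. Where a library had several peaks in a region the highest fold was taken. By the highest promoter region of each gene, SMARCA4 (at an inner promoter) had the highest mean fold, 4.45, followed by SMARCD1 (4.37), SMARCC1 (4.33), ARID1B (4.07), ARID2 (3.98), SMARCA2 (3.82), SMARCC2 (3.66), PBRM1 (3.59), SMARCB1 (3.52) and ARID1A (3.33). Neighbours in this order overlapped in their libraries, and SMARCA2 spread most (SD of log2 fold 0.29, n = 8), SMARCC1 least (0.06, n = 8). The ARID2 value rests in most libraries on a peak more than 1 kb upstream of its main TSS.

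**Figure D1:**
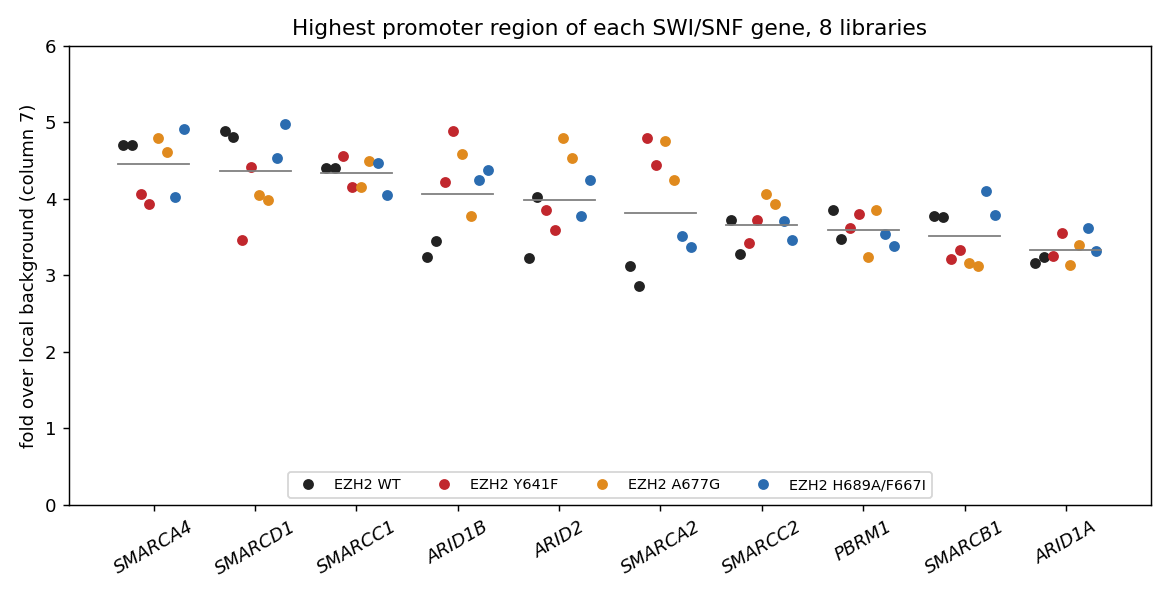
Fold over local background (y axis, from 0) of the highest promoter region of each gene (x axis, ordered by mean), 1 point per library, coloured by line, with a grey bar at the mean of the 8. The SMARCA2 points of the 4 GOF libraries lie from 4.25 to 4.80, above the WT and LOF points, which reach 3.51 at most.

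SMARCA2, the alternative ATPase, had the promoter whose fold varied most over the libraries. The region (chromosome 9, 2014701 to 2017752) had folds of 3.12 and 2.86 in WT, 4.80 and 4.45 in Y641F, 4.76 and 4.25 in A677G, with 3.51 and 3.37 in LOF. All 4 GOF libraries lay above all 4 WT and LOF libraries, an order that was not counted over all regions. The group means were 2.99 ± 0.187 in WT, 4.63 ± 0.242 in Y641F, 4.50 ± 0.361 in A677G and 3.44 ± 0.0948 in LOF (SD, n = 2 each). After each library was centred on its median, the difference in log2 fold from WT was 0.78 (SE 0.11) in Y641F, with an adjusted p = 0.038 in limma over 18787 regions. It was 0.66 (SE 0.11, adjusted p = 0.121 in limma) in A677G and 0.25 (SE 0.11, adjusted p = 0.539 in limma) in LOF. The mean of the GOF lines exceeded that of WT and LOF by 0.60 (SE 0.08, adjusted p = 0.0284 in limma).

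The width of the SMARCA2 promoter region went the other way. Its peaks summed to 2943 and 3052 bp in WT and 2872 and 2894 bp in LOF. They summed to 1312 and 1903 bp in Y641F and 954 and 1947 bp in A677G. In each WT and LOF library the region was 1 unbroken peak, and in the GOF libraries it was 2 or 3 peaks. The first of these, over the main TSS, was 653, 824, 704 and 732 bp wide and had the high fold, while the later ones had folds of 2.40 to 2.63. After centring, the log2 difference in width was -0.32 in Y641F and -0.75 in A677G and did not pass (adjusted p = 0.562 and 0.57 in limma). With only peaks of −log10 q of 5 or more, which drop the later, weaker peaks, it was -1.55 and -1.73 (adjusted p = 0.00162 and 0.0031 in limma), so this call depends on the peak threshold. The split was looked for after the peaks had been seen. Of 17911 regions open everywhere with 1 peak in every WT and LOF library, 13 (0.0726%) had 2 or more in every GOF library. The 17911 included 24 member regions, of which 1, SMARCA2, was split in this way. When folds were averaged over all peaks of the region by width, the difference in Y641F was 0.37 (adjusted p = 0.14 in limma), so the call ended. As peak area, fold times width, it was 0.06 in Y641F and fell by 0.39 in the GOF lines against WT and LOF (adjusted p = 0.866 and 0.171 in limma). The call was also lost whichever library was left out, with an adjusted p of 0.052 to 0.179 for Y641F and 0.0516 to 0.161 for the GOF lines in limma.

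**Figure D2:**
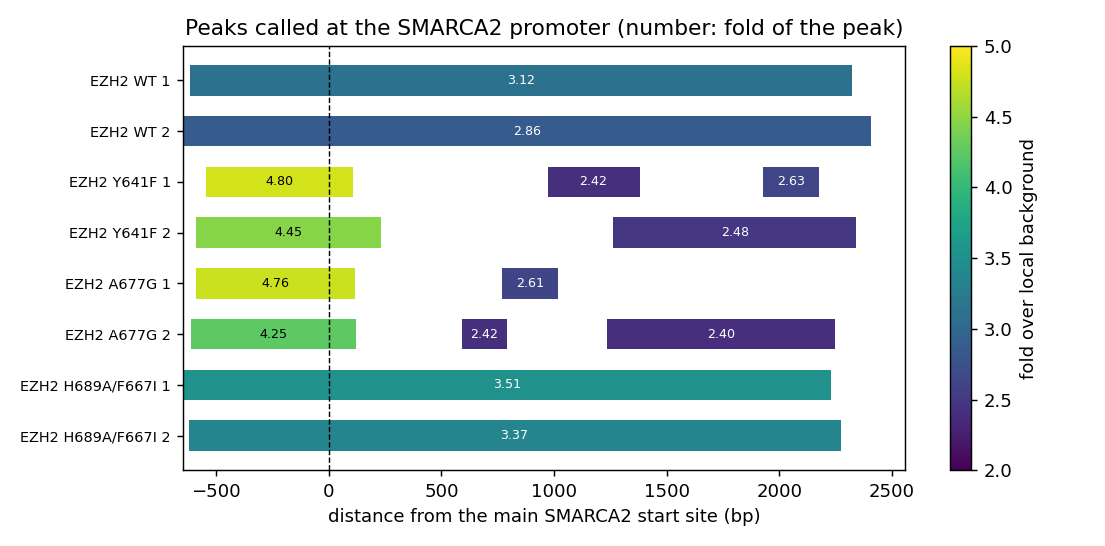
Peaks called at the SMARCA2 promoter in each library (rows), against distance from the main start site in bp (x axis, dashed line at the site). Bar length is the called peak, colour and number its fold. WT and LOF rows show 1 peak each, and the Y641F and A677G rows show 2 or 3 peaks of which the first holds folds of 4.25 to 4.80.

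The −log10 p of the SMARCA2 promoter, which grows with depth, was read only as a rank. Its peak stood at percentile 89.0 and 78.6 of all peaks in the WT libraries and 85.4 and 86.3 in LOF. It stood at 98.0 and 97.3 in Y641F and 96.1 and 96.4 in A677G, but the lists differ in length between lines, so no change is read from these ranks. The second SMARCA2 promoter region (chromosome 9, 2157304 to 2158576), at the start of a short isoform within the gene, had folds of 3.11 to 3.98 and adjusted p of at least 0.654 in limma in each contrast. A region in intron 30 (2181853 to 2182119) was open in both WT libraries, with folds of 3.45 and 4.41, and in no other library. With equal peak numbers it was open in no library.

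SMARCA4, the other ATPase, had 2 promoter regions open throughout. At the main TSS (chromosome 19, 10960353 to 10961215) the folds were 4.21 and 4.96 in WT, 3.90 and 3.65 in Y641F, 3.43 and 3.84 in A677G, with 3.88 and 3.61 in LOF. All mutant libraries lay below both WT libraries, but the differences did not pass the test (log2 from -0.26 to -0.13, adjusted p of at least 0.345 in limma). The inner promoter (11035404 to 11036276), 74.8 kb downstream, was 740 and 843 bp wide in WT, 203 and 288 bp in Y641F, 751 and 553 bp in A677G, with 625 and 847 bp in LOF. Both Y641F libraries were narrower than the other 6. The log2 difference in width was -1.11 (SE 0.31), and it did not pass after adjustment (adjusted p = 0.212 in limma). It passed without centring, at -1.71 (adjusted p = 0.0358 in limma), a scale on which the median difference of all regions was -0.52.

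No gene of the shared core passed a test. SMARCB1, whose loss drives rhabdoid tumours, had 1 region (chromosome 22, 23786400 to 23787659), with folds of 3.78 and 3.77 in WT, 3.22 and 3.33 in Y641F, 3.16 and 3.13 in A677G, with 4.11 and 3.79 in LOF. All GOF libraries lay below all WT and LOF libraries, and the centred log2 difference of -0.18 did not pass (SE 0.07, adjusted p = 0.192 in limma). Against WT alone the centred difference was -0.06 in Y641F, -0.19 in A677G and 0.11 in LOF. SMARCD1 (chromosome 12, 50084696 to 50085890) was similar, at 4.89 and 4.81 in WT, 3.46 and 4.42 in Y641F, 4.05 and 3.99 in A677G, with 4.54 and 4.98 in LOF. The GOF libraries were again the lower 4, with a difference of -0.19 (SE 0.09, adjusted p = 0.267 in limma). Both orders are of folds before centring, where the median GOF difference of all regions was -0.07. How many of all regions show such an order was not counted. The scaffold genes did not share this order. SMARCC1 (chromosome 3, 47781255 to 47782541) ranged from 4.05 to 4.56 and SMARCC2 (chromosome 12, 56188801 to 56190713) from 3.28 to 4.07, with GOF and other libraries mixed. SMARCC1 also had a region in intron 10 (47703742 to 47704556) with folds of 4.61 to 5.42 in the 8 libraries, higher than its promoter in each of them.

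ARID1B, a BAF-defining DNA-binding subunit and the longest of the genes at 434.8 kb, held 34 of the 57 regions, 12 of them open in all libraries. It had 30 and 26 open regions in WT, 16 and 21 in Y641F, 24 and 23 in A677G, and 23 in each LOF library. The WT libraries had the most and the Y641F libraries the fewest, as for peak number. Its main promoter region (chromosome 6, 156777144 to 156778547) was weak, with folds of 2.33 to 2.96, and was closed in Y641F replicate 1.

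**Figure D3:**
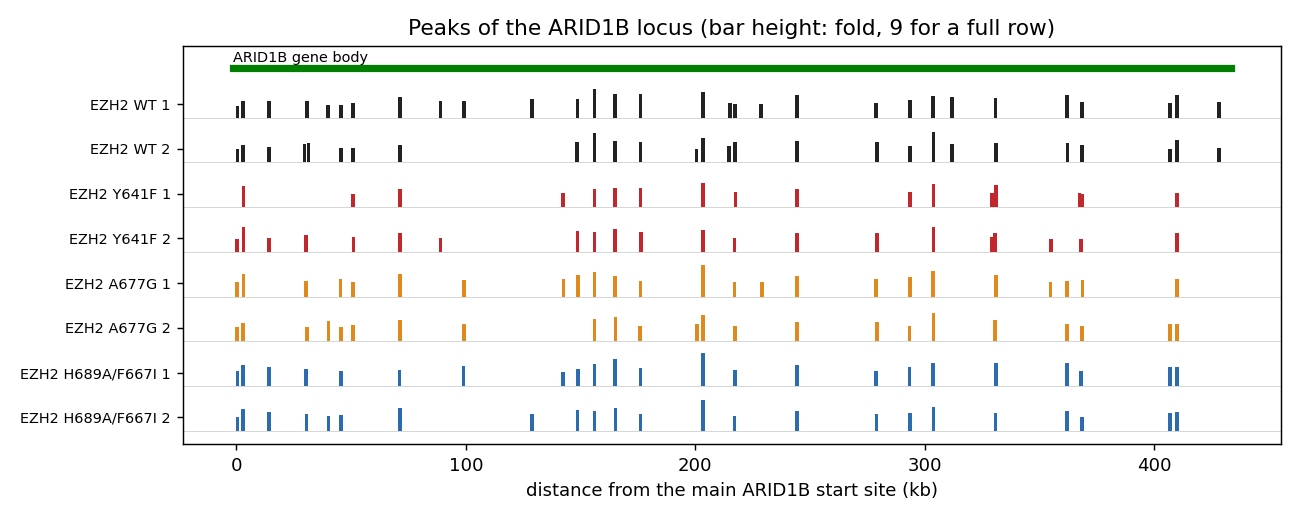
Peaks of the ARID1B locus in each library (rows), against distance from the main start site in kb (x axis). Bar height is the fold of the peak on a scale where a full row is 9, bar width is fixed and not to scale, and the green line is the gene body. The WT rows hold 30 and 26 open regions and the Y641F rows 16 and 21.

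A second ARID1B promoter region, 2.82 kb downstream (156779706 to 156780694), had folds of 3.24 and 3.45 in WT, 4.22 and 4.89 in Y641F, 4.59 and 3.78 in A677G, with 4.25 and 4.38 in LOF. All 6 mutant libraries lay above WT. The log2 difference was 0.59 (SE 0.12, adjusted p = 0.0459 in limma) in Y641F, 0.39 (adjusted p = 0.187 in limma) in A677G and 0.41 (adjusted p = 0.363 in limma) in LOF. The peak was narrower in Y641F (316 and 298 bp) and A677G (293 and 580 bp) than in WT (976 and 724 bp). In LOF it was 790 and 739 bp wide. The peak area in Y641F differed by -0.25 (adjusted p = 0.70 in limma). Leaving out each library in turn gave an adjusted p of 0.0564 to 0.189 in limma, so the call ended each time.

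Other ARID1B regions differed in presence. The inner promoter region at 156827603 to 156828707 was open in all WT and GOF libraries, with folds of 2.69 to 3.29, and closed in both LOF libraries. The inner promoter region at 157205369 to 157206118 was open only in WT (3.06 and 2.95), as were the intronic regions at 156992025 (2.92 and 3.33) and 157089308 (4.22 and 3.76). With equal peak numbers those open only in WT had no peak in any library, WT included. The region at 156827603 then had a peak in Y641F replicate 1 only. The region in intron 5 at 157106214 to 157106811 was the only one gained, being open in both Y641F libraries (2.89 and 2.91) and in no other. Its peaks stood at percentile 19.8 and 28.7 by −log10 p, and with equal peak numbers it was still open in both Y641F libraries alone. The intronic regions at 156822622 and 157139204 were closed in the Y641F libraries alone. With equal peak numbers the first was open in A677G replicate 1 only. The second was then open in WT replicate 1, A677G replicate 2 and both LOF libraries. The region at 157184273, in a coding exon, was closed in both Y641F libraries and in A677G replicate 1, and that at 156791313 in both A677G libraries and in Y641F replicate 1. With equal peak numbers neither was open in a WT library. Of the inner regions open in all libraries the highest was in intron 4 (156980559 to 156981212), with folds of 5.09 and 4.93 in WT, 4.90 and 4.44 in Y641F, 6.25 and 5.34 in A677G, with 6.67 and 6.22 in LOF. The LOF peaks were shorter, ending 203.468 and 203.482 kb from the main TSS. Those of the other lines ended at 203.745 to 203.834 kb, and all began at 203.181 to 203.203 kb. The remaining promoter region (157020949 to 157022419) was steady in width, at 1342 to 1418 bp, with folds of 3.58 to 4.55.

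ARID1A, the alternative BAF subunit and a frequent tumour suppressor, had a promoter region upstream of the main TSS (chromosome 1, 26692284 to 26693389) with folds of 3.14 to 3.62 and widths of 986 to 1081 bp. The region at the main TSS itself (26695480 to 26695985) was weak. It had folds of 2.31 and 2.49 in WT, 2.61 and 2.67 in A677G and 2.37 in LOF replicate 2, and was closed in both Y641F libraries and in LOF replicate 1. With equal peak numbers it was open in no library. Within intron 1 the region at 26697613 to 26698570 was open throughout at 3.50 to 4.39. The intron 1 region at 26705669 to 26706167 was closed in both Y641F libraries, in A677G replicate 2 and in LOF replicate 1. With equal peak numbers it was open in WT replicate 1 and LOF replicate 2 only.

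ARID2, the DNA-binding subunit of PBAF, had the only member region with presence that followed the GOF lines. The region in intron 3 (chromosome 12, 45762292 to 45762855) had folds of 3.82 and 3.57 in WT and 4.65 and 4.08 in LOF, and had no peak in any of the 4 GOF libraries. Such presence was seen in 1 of the 36 member regions with a peak in each WT and LOF library. Of all promoter and intragenic regions with those 4 peaks 2.92% had none in any GOF library, so this count is near the background. At equal peak number the region was open in LOF replicate 1 only. The ARID2 promoter (45726983 to 45729455) had folds of 3.23 and 4.03 in WT, 3.85 and 3.59 in Y641F, 4.80 and 4.54 in A677G, with 3.78 and 4.25 in LOF. The A677G libraries were the highest, with a log2 difference of 0.44 from WT (SE 0.13, adjusted p = 0.168 in limma). The region was 1 peak in WT replicate 1 and Y641F replicate 2 and 2 peaks in each other library, where the highest fold was taken. There it was that of the upstream peak, which lay outside the 1 kb window (-2237 to -1628 bp in A677G replicate 1). The peak nearer the TSS had folds of 3.58 and 3.24 in A677G and 3.72 and 2.89 in LOF. It had 3.07 in WT replicate 2 and 3.15 in Y641F replicate 1, so the A677G order is that of the upstream peak. Averaged over its peaks by width, the fold was 3.23 and 3.63 in WT and 4.30 and 3.84 in A677G, which remained the highest. PBRM1, the bromodomain subunit of PBAF, shares its promoter (chromosome 3, 52685342 to 52686519) with the start site of GNL3, and the peak cannot be assigned to either. Its folds ran from 3.24 to 3.86 with the groups overlapping.

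All 17 member promoter regions had a peak in each WT library. Y641F lacked 2 of them in both of its libraries, here called lost (11.8%), A677G lacked 1 (5.88%) and LOF lacked 2 (11.8%). Over all promoter regions the shares were 10.8%, 4.34% and 2.88%. Among 26 intragenic member regions with a peak in each WT library, Y641F had lost 8 (30.8%), A677G 5 (19.2%) and LOF 3 (11.5%). The shares over all intragenic regions were 46.9%, 28.1% and 19.2%. The lost promoter regions belonged to ARID1A and ARID1B in Y641F and to ARID1B in the other mutants. Among the 3 member regions with no WT peak, 1 was gained in Y641F, 0 in A677G and 0 in LOF, and over all such promoter and intragenic regions 8.78%, 13.4% and 21.7% were gained. When each list was limited to an equal number of peaks, which kept 35 member regions, Y641F had lost 0 of them, A677G 1 and LOF 0. Member counts are small and the regions of 1 gene share their source, so these shares are descriptions.

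Across the 25 member regions open in all libraries, fold passed the test in 2 for Y641F against WT, both higher (SMARCA2 and ARID1B), where 1.23% of all regions passed. It passed in 0 for A677G and 0 for LOF, with 0.0% of all regions passing in limma, and in 1 (SMARCA2) for the GOF lines against WT and LOF, where 0.0373% of all regions passed. Of all 160 regions that passed as higher in Y641F, 130 had a lower width and 0 passed as peak area. Of the 71 that passed as lower, 17 had a lower width. For the GOF lines 6 regions passed as higher, of which 5 had a lower width and 0 passed as peak area. Without centring the ARID1B promoter call ended (0.44, adjusted p = 0.0548 in limma), and 2 intronic ARID1B regions, named after their values were seen, passed as lower in Y641F. The region at 156933174 to 156933707 had folds of 5.69 and 5.87 in WT and 3.57 and 4.07 in Y641F, a log2 difference of -0.45 with centring (adjusted p = 0.0689 in limma) and -0.60 without (adjusted p = 0.0286 in limma), and it also passed with equal peak numbers (adjusted p = 0.0399 in limma). The region at 157144688 to 157146486 differed by -0.19 with centring (adjusted p = 0.257 in limma) and -0.34 without (adjusted p = 0.0463 in limma). With centring, at an unadjusted p under 0.05, there were 5, 8, 5 and 7 member regions in these contrasts (20.0%, 32.0%, 20.0% and 28.0%), against 21.4%, 14.6%, 9.09% and 18.4% of all regions. The median log2 difference of the members was 0.05, 0.04, 0.02 and 0.01, and that of all regions 0.03, 0.02, 0.01 and 0.02. Width passed in 0 member regions in each contrast, and also in 0.0%, 0.0%, 0.0% and 0.0% of all regions in limma. At an unadjusted p under 0.05 width gave 4, 2, 2 and 7 member regions (16.0%, 8.0%, 8.0% and 28.0%), against 16.8%, 8.38%, 5.1% and 14.2% of all regions.

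**Figure D4:**
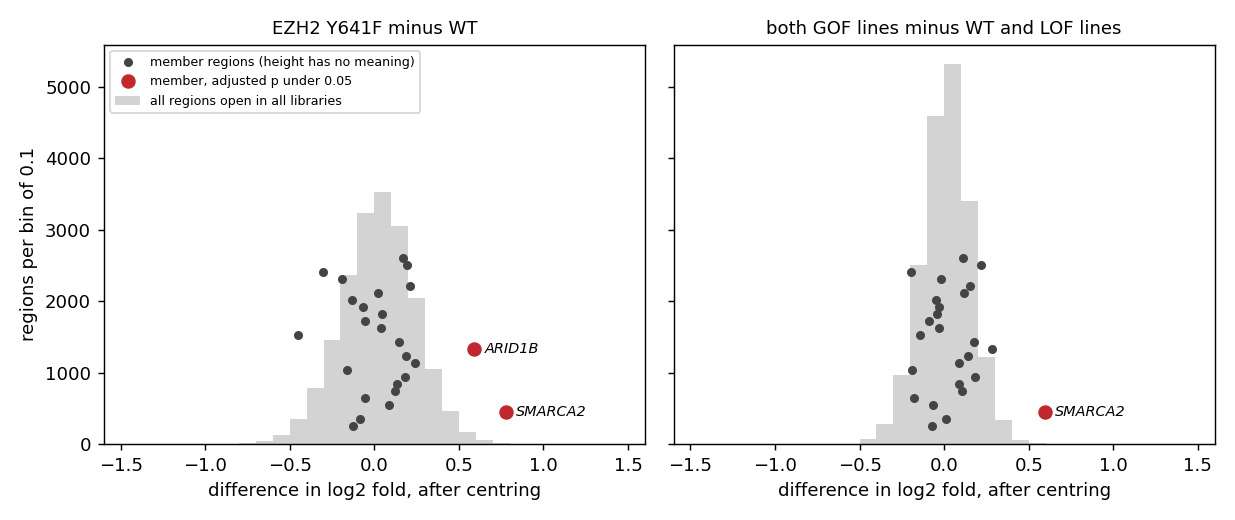
Distribution of the difference in log2 fold after centring (x axis) over 18787 regions open in all libraries (grey bars, regions per bin of 0.1 on the y axis), with the 25 member regions as points whose height has no meaning, for Y641F against WT (left) and the GOF lines against WT and LOF (right). Points past an adjusted p of 0.05 are red, SMARCA2 and ARID1B at 0.78 and 0.59 on the left and SMARCA2 at 0.60 on the right.

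The length of each locus covered by peaks summed these changes per gene. SMARCA4 had 1905 and 2755 bp in WT, 421 and 1132 bp in Y641F, 1242 and 1072 bp in A677G, with 1441 and 1370 bp in LOF. Its 4 GOF libraries lay below the other 4, as did those of SMARCC1 (1166 to 1751 bp against 1798 to 2923 bp) and SMARCC2 (911 to 1138 bp against 1294 to 1901 bp). The other 7 genes overlapped. How many of all genes show this order was not counted. Each GOF library also covered less in total (15.16 to 26.98 Mb) than each WT or LOF library (29.68 to 42.52 Mb). After centring, the GOF difference from WT and LOF was -0.49 for SMARCA4, -0.14 for SMARCC1 and 0.01 for SMARCC2 (adjusted p = 0.33, 0.679 and 0.977 in limma). After centring, SMARCA4 differed from WT by -0.89 in Y641F (SE 0.36, adjusted p = 0.193 in limma), the lowest adjusted p among the members in that contrast. This rested on single libraries, being -0.35 without Y641F replicate 1 and -1.39 without Y641F replicate 2, where it passed (adjusted p = 0.575 and 0.0459 in limma). Covered length passed the test in 0 members in each contrast. With only peaks of −log10 q of 5 or more SMARCA2 passed as lower in Y641F (-1.34), A677G (-1.6) and the GOF lines (-1.61), with adjusted p = 0.0134, 0.0277 and 0.0037 in limma. Over 13464 genes it passed in 1.17% for Y641F, 0.0% for A677G, 0.0% for LOF and 0.0743% for the GOF lines against WT and LOF. At an unadjusted p under 0.05 there were 1, 0, 0 and 0 members in limma, and 3116, 1250, 725 and 2536 of all genes. Centring removed a median log2 difference of -0.84 in Y641F, -0.51 in A677G and -0.31 in LOF, so these values are relative to a general shortening.

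**Figure D5:**
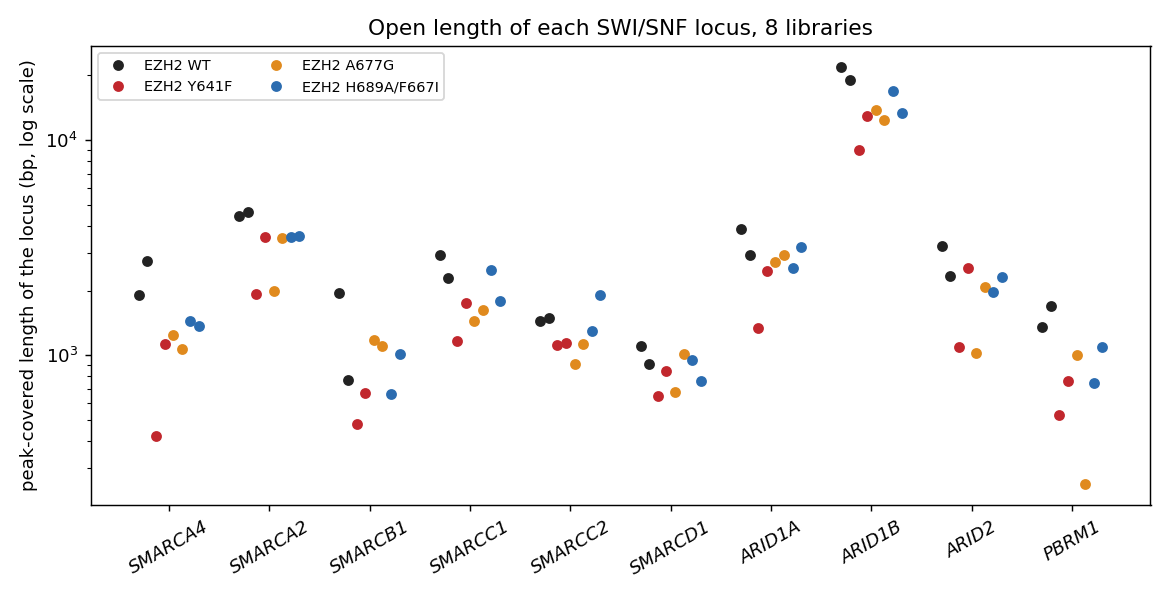
Length of each locus covered by peaks in bp (y axis, log scale) for the 10 genes (x axis), 1 point per library coloured by line, not centred. ARID1B has the most, 9037 to 21951 bp, and the SMARCA4 points of the GOF libraries (421 to 1242 bp) lie below those of the other lines (1370 to 2755 bp).

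Among 21 genes of other SWI/SNF subunits, 14 had a promoter open in all 8 libraries. Of the 19970 protein-coding genes 11489 had such a promoter. SMARCD3, BRD7, BCL7A and BICRAL were closed in both Y641F libraries alone. Counted by region and not by gene, 10.8% of all promoter regions open in both WT libraries were closed in both Y641F libraries. ACTL6B and SS18L1 were closed in both Y641F libraries and in A677G replicate 1, and BCL11B in Y641F replicate 1. Promoter fold passed in 0 of 14 genes in each contrast in limma, with 3, 3, 2 and 2 at an unadjusted p under 0.05, where 21.4%, 14.6%, 9.09% and 18.4% of all regions had such a p. Covered length passed in 1 of 17 in Y641F, BCL7A, which had 2011 and 2565 bp in WT and 236 and 430 bp in Y641F (log2 difference -1.99, adjusted p = 0.0348 in limma). That call was lost with equal peak numbers and without either WT library, where 0 genes passed (lowest adjusted p = 0.0722, 0.233 and 0.236 in limma over all genes). At an unadjusted p under 0.05 covered length gave 5, 0, 0 and 3 of the 17, and 23.1%, 9.28%, 5.38% and 18.8% of all genes. Of 16 ATPase genes of other remodellers, 15 had a promoter open in all libraries and 0 passed for fold or covered length in any contrast in limma. At an unadjusted p under 0.05 the fold gave 3, 2, 2 and 2 of 15 and covered length 3, 1, 2 and 3 of 16, beside the same shares of all regions and genes.

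Among 11489 genes with a promoter peak in each of the 8 libraries, SPHK1 had a promoter pattern among those most like SMARCA2 (r = 0.987). Those most like SMARCA4, at its inner promoter, were TCF7L1 (r = 0.985), SEMA4C (0.943) and AIF1L (0.938). These are Pearson's r of centred log2 fold over 8 libraries, which come from 4 lines and are not all independent, and they are the highest of many.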

How the data were processed

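ATAC-seq libraries of 8 samples were grouped by line from their titles, with 2 libraries per line. Per the methods and the submitters' processing notes, the authors trimmed reads with Trim Galore (0.6.5), aligned them to GRCh38/hg38 with BWA (0.7.17), removed duplicates and called peaks with MACS2 (2.2.7.1). The deposited lists hold broad peaks per library, with a fold (a ratio of pileup to local background), a −log10 p, a −log10 q and a display score that the authors' caller gave and that was not used here. Every list ends just above a −log10 q of 1. Shifting of reads for the transposase and depth are not given in the sources used here.

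Peaks on chromosomes 1 to 22 and X that shared at least 1 bp were merged over libraries, and regions with peaks in 2 or more libraries were kept. No peak passed a chromosome end of the reference. Fold (highest peak), summed width and covered length per gene were compared on the log2 scale, each library centred on its median, with limma 3.58.1 (R 4.3.3) over all regions open in all libraries or all genes with a peak in each, with Benjamini-Hochberg adjustment and a threshold of 0.05. Presence was counted without a test, since 2 against 2 libraries cannot give an exact p under 0.333. The differential count test of the study was not run, as the lists hold no counts. In simulated data for Y641F against WT, 175 of 200 changes of 1 log2 in fold over 18787 regions were recovered, and 180 and 181 of 200 changes of 3 log2 in width (18787 regions) and covered length (13464 genes). Member differences in Y641F were smaller, at -0.45 to 0.78 in fold, -1.11 to 0.69 in width and -0.89 to 0.46 in covered length. Recovery at such sizes was not tested, so a difference that did not pass is not shown to be absent. The lists give no read counts, so no counting interval can be given, and p-values measure the spread between 2 cultures of 1 selected population.

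The members, gene lists and tests were chosen with earlier results of these data known. Named were the 10 members, all their promoter regions, per gene the inner region with the highest mean fold among those open in all libraries, every region lost or gained in a mutant, and of the other subunits those with a promoter closed in a library or a call. Alternatives were a stricter peak threshold (−log10 q of 5 or more), equal peak numbers (the 26350 with the lowest p in each list), leaving out each library, a 50% cover, a 500 bp promoter window, regions seen in 1 library, a replicate block, no centring, quantile normalization, pairwise regions, a pseudocount of 500 bp and TSS windows only. For SMARCA4 and SMARCA2 the named genes come from the 3 with the highest correlation of promoter fold. Some items that these rules name are not reported here. The count of split peaks was chosen, and peak area and width-weighted fold were added after the data had been seen.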

Additional observations from a re-analysis of the deposited data

Results flagged for a closer look

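In each case below the value is the gap of 1 library to its nearest neighbour as a share of the range of 4 libraries, both on the log2 scale (the GOF libraries, or the WT and LOF libraries). With 46 such sets looked at, some flags can come by chance. Each set mixed libraries of different lines, so no chance rate is given. The covered length of SMARCA4 was set apart by Y641F replicate 1, at 421 bp, among the GOF libraries (0.864). The covered length of SMARCC2 was set apart by A677G replicate 1, at 911 bp (0.908). The SMARCB1 promoter fold of 4.11 in LOF replicate 1 stood apart from the other WT and LOF libraries (0.943), and so did the SMARCC1 promoter fold of 4.05 in LOF replicate 2 (0.831).

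Pairs of lines moved in opposite directions from WT in both of their libraries after centring, but 0 of these gaps passed the test of the difference between the lines in limma over 18787 regions. At the inner SMARCA4 promoter the fold was above WT in A677G and below it in Y641F, a log2 gap of 0.16 (SE 0.12, adjusted p = 0.695 in limma). At the SMARCB1 promoter it was above WT in LOF and below it in Y641F (gap 0.17, SE 0.09, adjusted p = 0.49 in limma) and in A677G (gap 0.30, SE 0.09, adjusted p = 0.618 and unadjusted p = 0.00751 in limma).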

How the results depend on the processing

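Of 297 recomputed counts 204 stayed within 1.5 times the reported count, and of 3400 recomputed single values 3190 kept their direction and their side of the threshold. The cause of the other changes was not tested. With a −log10 q of 5 or more, member regions fell from 57 to 23, promoter regions open throughout from 13 to 5, and those lost from 10 to 5 in Y641F, 6 to 3 in A677G and 5 to 2 in LOF, with 0 gained in Y641F. With equal peak numbers there were 35 member regions, 0 lost in Y641F, 1 in A677G and 0 in LOF, 2 gained in Y641F, 1 in A677G and 4 in LOF, and 0 closed in the GOF lines alone. Regions seen in 1 library or more numbered 90, and a 50% cover left 4 promoter regions open throughout.

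Fold calls over all regions for Y641F (231) became 142 with the replicate block, 1175 without centring (88 higher, 1087 lower, against 160 and 71), 7 with quantile normalization (3 higher, 4 lower), 3 with pairwise regions, 0 as peak area, 118 as width-weighted fold, 115 at the stricter threshold and 538 with equal peak numbers. For the GOF lines (7) they became 303 without centring, 0 with quantile normalization, 1 with pairwise regions, 0 as peak area, 3 as weighted fold, 32 at the stricter threshold and 179 with equal peak numbers. Width calls (0) became 1218 in Y641F and 421 in the GOF lines without centring, 17 in the GOF lines with quantile normalization, 19, 7 and 19 in Y641F, A677G and the GOF lines at the stricter threshold, and 2 in LOF with equal peak numbers. Calls in covered length for Y641F (158) became 94 with the replicate block, 4960 without centring, 39 with quantile normalization, 442 with a pseudocount, 41 in TSS windows and 0 with equal peak numbers. For the GOF lines (10) they became 0 with the replicate block, 2934 without centring, 0 with quantile normalization, 153 with a pseudocount, 20 in TSS windows, 56 at the stricter threshold and 0 with equal peak numbers, and for A677G (0) they became 4 at the stricter threshold.

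Leaving out 1 library at a time gave 49 to 56 member regions, 13 to 14 promoter regions open throughout, 9 to 16 lost in Y641F, 4 to 8 in A677G and 2 to 7 in LOF, 0 to 2 gained in A677G and 0 to 1 in LOF, and 1 to 2 closed in the GOF lines alone. It gave 0 to 17 fold calls in Y641F and 0 to 4 in the GOF lines, 0 to 185 and 0 to 51 width calls, and 0 to 1149 and 0 to 577 calls in covered length.

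The SMARCA2 fold call in Y641F held in 4 of 16 alternatives (adjusted p 0.0102 to 0.866 in limma), that in the GOF lines in 4 of 16 (0.00398 to 0.222) and the ARID1B call in 3 of 16 (0.0218 to 0.70). Peak area turned the direction for SMARCA2 in the GOF lines (-0.39) and for ARID1B in Y641F (-0.25), and the covered length of SMARCA2 in Y641F turned to -1.34 at the stricter threshold (adjusted p = 0.0134 in limma), where it also passed in A677G (-1.6) and the GOF lines (-1.61). Without centring the covered length of SMARCA4 and ARID1B passed in Y641F (-1.73 and -0.92, adjusted p = 0.0277 and 0.0282 in limma). Among the members the replicate block ended the ARID1B fold call (adjusted p = 0.056 in limma). Same-numbered libraries did not deviate together after centring (r from -0.0158 to 0.0371 over regions or genes). Centring removes a shift of a whole library, so this cannot tell whether same-numbered libraries were prepared together.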
